A study of Mus musculus with 16 samples.

Results

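NP24 and thymosin β10 (Tβ10) are peptides that the labels attribute to the subcommissural organ, and the comparison here set neurons given NP24 against neurons given Tβ10. The 8 libraries were taken by their treatment label, 4 with NP24 and 4 with Tβ10, out of 16 in the series, and all 45724 genes of the deposited table were considered. All groups were primary neurons cultured from the brain of C57BL/6 mice at postnatal day 0, so no group differed by genotype. NP24 libraries came from cultures with NP24 added and Tβ10 libraries from cultures with Tβ10 added. A further 4 libraries (Ctrl) came from cultures given Dulbecco's phosphate-buffered saline (DPBS) and are used below for reference only. The labels give neither the dose nor the exposure time, and do not say whether the 4 libraries of a group came from separate cultures. The p-values therefore measure the spread between these samples, which may be technical. Because neither peptide is a control for the other, the question is how large a difference between them the data leave room for.

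β-Thymosins are short peptides that bind actin monomers and so hold them back from filaments. In cells they come mainly from the genes Tmsb10 and Tmsb4x, and Tmsb10 is abundant in developing neurons. Free actin monomer also binds the coactivators MRTF-A and MRTF-B and keeps them from the transcription factor SRF, whose targets include actin and other cytoskeletal genes. The subcommissural organ is a gland in the roof of the ventricular system that secretes into the cerebrospinal fluid. No structure or sequence of NP24 was used here.

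Reads assigned to genes numbered 17822459 to 23363145 in the NP24 libraries and 11642242 to 38254320 in the Tβ10 libraries. The values below are normalized counts, which are the authors' gene counts divided by 1 size factor per library, and differences are log2 values of NP24 minus Tβ10. The 6 neuronal markers (Tubb3, Map2, Rbfox3, Snap25, Stmn2 and Syt1) summed to 63648 to 70061 with NP24, 62242 to 69174 with Tβ10 and 55772 to 62685 in Ctrl, so the labelled cell type was borne out by its markers. Astrocyte markers summed to 9651 to 10278 with NP24, 7903 to 11337 with Tβ10 and 7587 to 9222 in Ctrl. Markers of the oligodendrocyte lineage summed to 6493 to 8696 with NP24, 7584 to 9564 with Tβ10 and 8676 to 10863 in Ctrl. The cultures thus held RNA of glia beside neurons. In such bulk samples fewer cells of a type and less RNA per cell cannot be told apart.

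No gene differed between NP24 and Tβ10 past the threshold. Of 21852 genes tested with limma, 0 (0%) had an adjusted p under 0.05, and the smallest adjusted p was 0.99978. At an unadjusted p under 0.05 there were 529 genes (2.42%), below the share of 0.05 expected on average if no gene differed. Genes named below whose 95% interval leaves out 0 are of this kind. On the recovered read counts edgeR and DESeq2 also called 0, with 488 and 577 genes at an unadjusted p under 0.05. The count of such genes was less steady than the 0 calls: it was 1090 without Tβ10 library 2, 1092 with the length slope described further on as a covariate and 2418 with array weights. A p that misses the threshold does not show that the peptides acted alike, so the size of each difference was tested as well. A gene was called bounded within 2-fold when a pair of one-sided moderated tests placed its difference above -1 and below 1 on the log2 scale, at an adjusted p under 0.05. That held for 15656 genes, 71.6% of those tested, and 9952 genes (45.5%) were bounded within 1.5-fold by the same test with margins of 0.585. The remaining genes were neither called different nor bounded. Both shares depended on which low genes were kept, being 37.3% and 21.02% with no filter on low values and 95.05% and 67.4% among genes that reached 50 normalized counts. With a pseudocount of 10 in place of 1, which pulls low genes together, the 2-fold share was 90.01%.

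Over all tested genes the median difference was 0.0062 and the median size of the difference, without its sign, was 0.14. The 95% interval of a gene's difference had a median half-width of 0.46, which is a factor of 1.38, and between the 10th and 90th percentile of genes it ran from 0.26 to 1.28. All 4 NP24 libraries lay above all 4 Tβ10 libraries in 171 genes and below them in 248, together 419 genes or 1.92%. Libraries of different peptides were about as far from each other as libraries of the same peptide. The median over genes of the size of the log2 difference between a pair of libraries was 0.297 for the 16 pairs of an NP24 with a Tβ10 library, with a range of 0.188 to 0.396. It was 0.286 for the 6 pairs within NP24, ranging from 0.254 to 0.381, and 0.310 for the 6 pairs within Tβ10, ranging from 0.274 to 0.437.

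The tightness of the bound depended on how much a gene was read. Genes with a mean of 10 to 30 normalized counts over the 8 libraries had a median half-width of 1.25, and 4.61% of these 4034 genes were bounded within 2-fold and 0 within 1.5-fold. From 30 to 100 counts the half-width was 0.77 and 55.8% of 4248 genes were bounded within 2-fold. From 100 to 300 counts it was 0.47, with 96.6% of 3922 genes bounded within 2-fold and 37.0% within 1.5-fold. A mean of about 100 normalized counts was therefore where a 2-fold bound became the rule. The 1.5-fold bound came one step later, with 86.5% of 4983 genes from 300 to 1000 counts and 95.5% of 3120 genes from 1000 to 3000 counts, where the half-widths were 0.33 and 0.27. Above that, precision improved little with reads. The half-width was 0.26 for the 1066 genes from 3000 to 10000 counts, of which 96.5% were bounded within 1.5-fold, and 0.31 for the 177 genes with 10000 or more, of which 84.7% were bounded within 1.5-fold. In those 177 genes the median SD between libraries, in log2 units, was 0.152 with NP24 and 0.278 with Tβ10.

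Counting error was a small part of this spread. Estimated from the recovered reads it made up a median of 11.9% of the variance of a gene's difference, 20.1% from 10 to 30 counts and 0.323% at 10000 or more. Large point differences were found only where reads were few. In all, 682 genes differed by more than 1 on the log2 scale, and 92, 505, 83 and 2 of them had a mean under 10, from 10 to 30, from 30 to 100 and from 100 to 300 counts. Among the genes with a mean of 300 or more there was none.

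**Figure D1:**
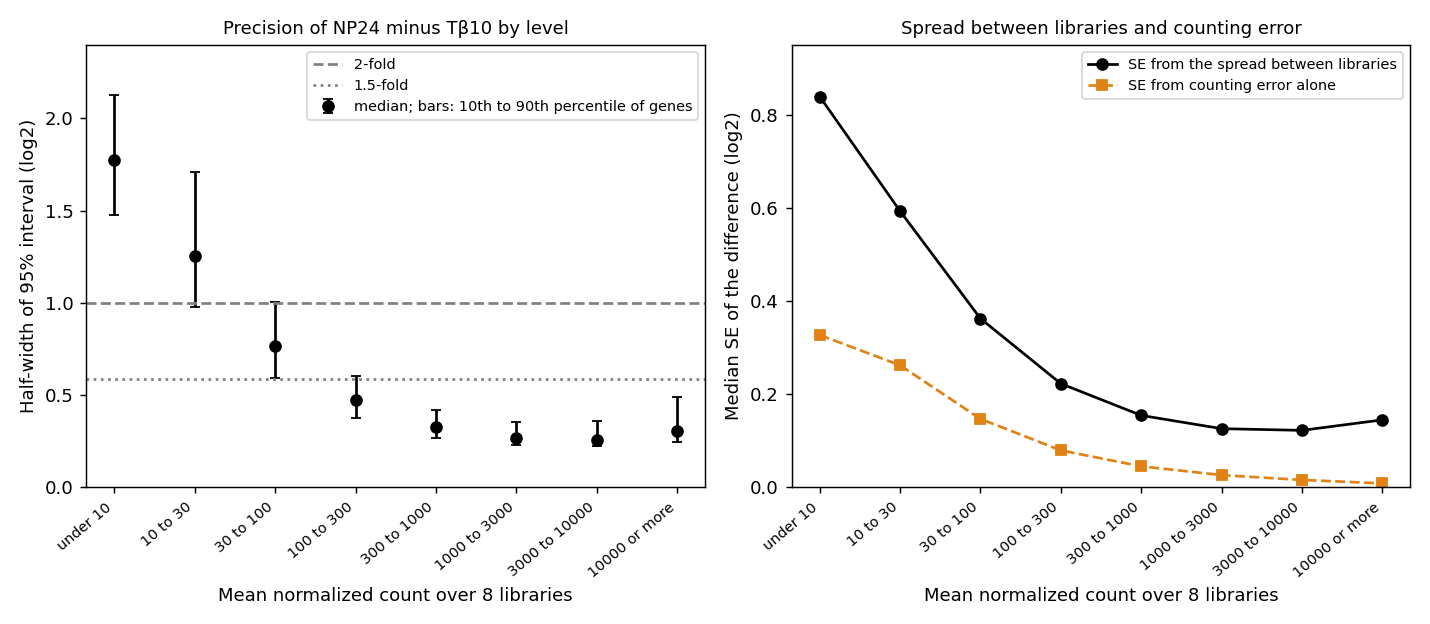
Precision of the NP24 minus Tβ10 difference by level of expression. Ranges of the mean normalized count over the 8 libraries run along the horizontal axes. The left panel gives the median half-width of the 95% interval (log2; bars, 10th to 90th percentile of genes), which drops to 0.26 at 3000 to 10000 counts and is 0.31 above that; the right panel gives the median standard error from the spread between libraries above that from counting alone.

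Genes of different classes were bounded to different degrees, along with their levels. Of 14777 protein-coding genes, with a median level of 421 normalized counts, 85.3% were bounded within 2-fold and 61.6% within 1.5-fold. Of 3774 lncRNA genes, with a median level of 60.0, 54.8% and 19.9% were bounded. Pseudogenes had a median level of 26.0, and 29.2% and 3.51% of 1309 were bounded. Within the range of 100 to 300 counts the 2-fold bound held for 97.8% of protein-coding and 96.0% of lncRNA genes, and the 1.5-fold bound for 41.2% and 30.8%. Levels were not fully matched there, with medians of 188 and 159 counts.

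The genes were next read by family, with 43 lists of pathways, protein families, cell types and broad symbol classes. In none of the 43 was any member called different, and in 7 every tested member was bounded within 2-fold. The 7 were actin monomer binders, growth cone genes, synaptic vesicle genes, projection neuron factors, interneuron genes, astrocyte genes and cell cycle genes. Median half-widths ran from 0.27 in the clustered protocadherins to 1.21 in the olfactory and vomeronasal receptors. If each member had the share of all genes at its level, the number bounded within 2-fold would differ from that found by at most 10% of the members in 39 of the 43 lists, and the number within 1.5-fold in 29. In 9 lists fewer members than that, and in 5 more, were found to be bounded within 1.5-fold. List medians of the difference lay between -0.28 and 0.23. Their sign was not stable. Of the 43 medians, 32 changed sign in at least 1 of 12 other settings (other scalings, array weights, the length slope described further on, or 1 library left out), and 22 changed sign when Tβ10 library 1 was left out. Each median below is therefore followed by its lowest and highest value in those 12 settings, and no direction is read from a median whose range spans 0. Of the 11 medians that kept their sign, those of the microglia, radial glia and ependymal genes lay below 0. Those above 0 were of the integrated stress response, SRF targets, immediate early genes, apoptosis and p53 targets, synaptic vesicle genes, interneuron genes, clustered protocadherins and olfactory and vomeronasal receptors. In the last of these 2 of 24 members were bounded within 2-fold, so a steady sign also occurred in a sparsely read list.

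**Figure D2:**
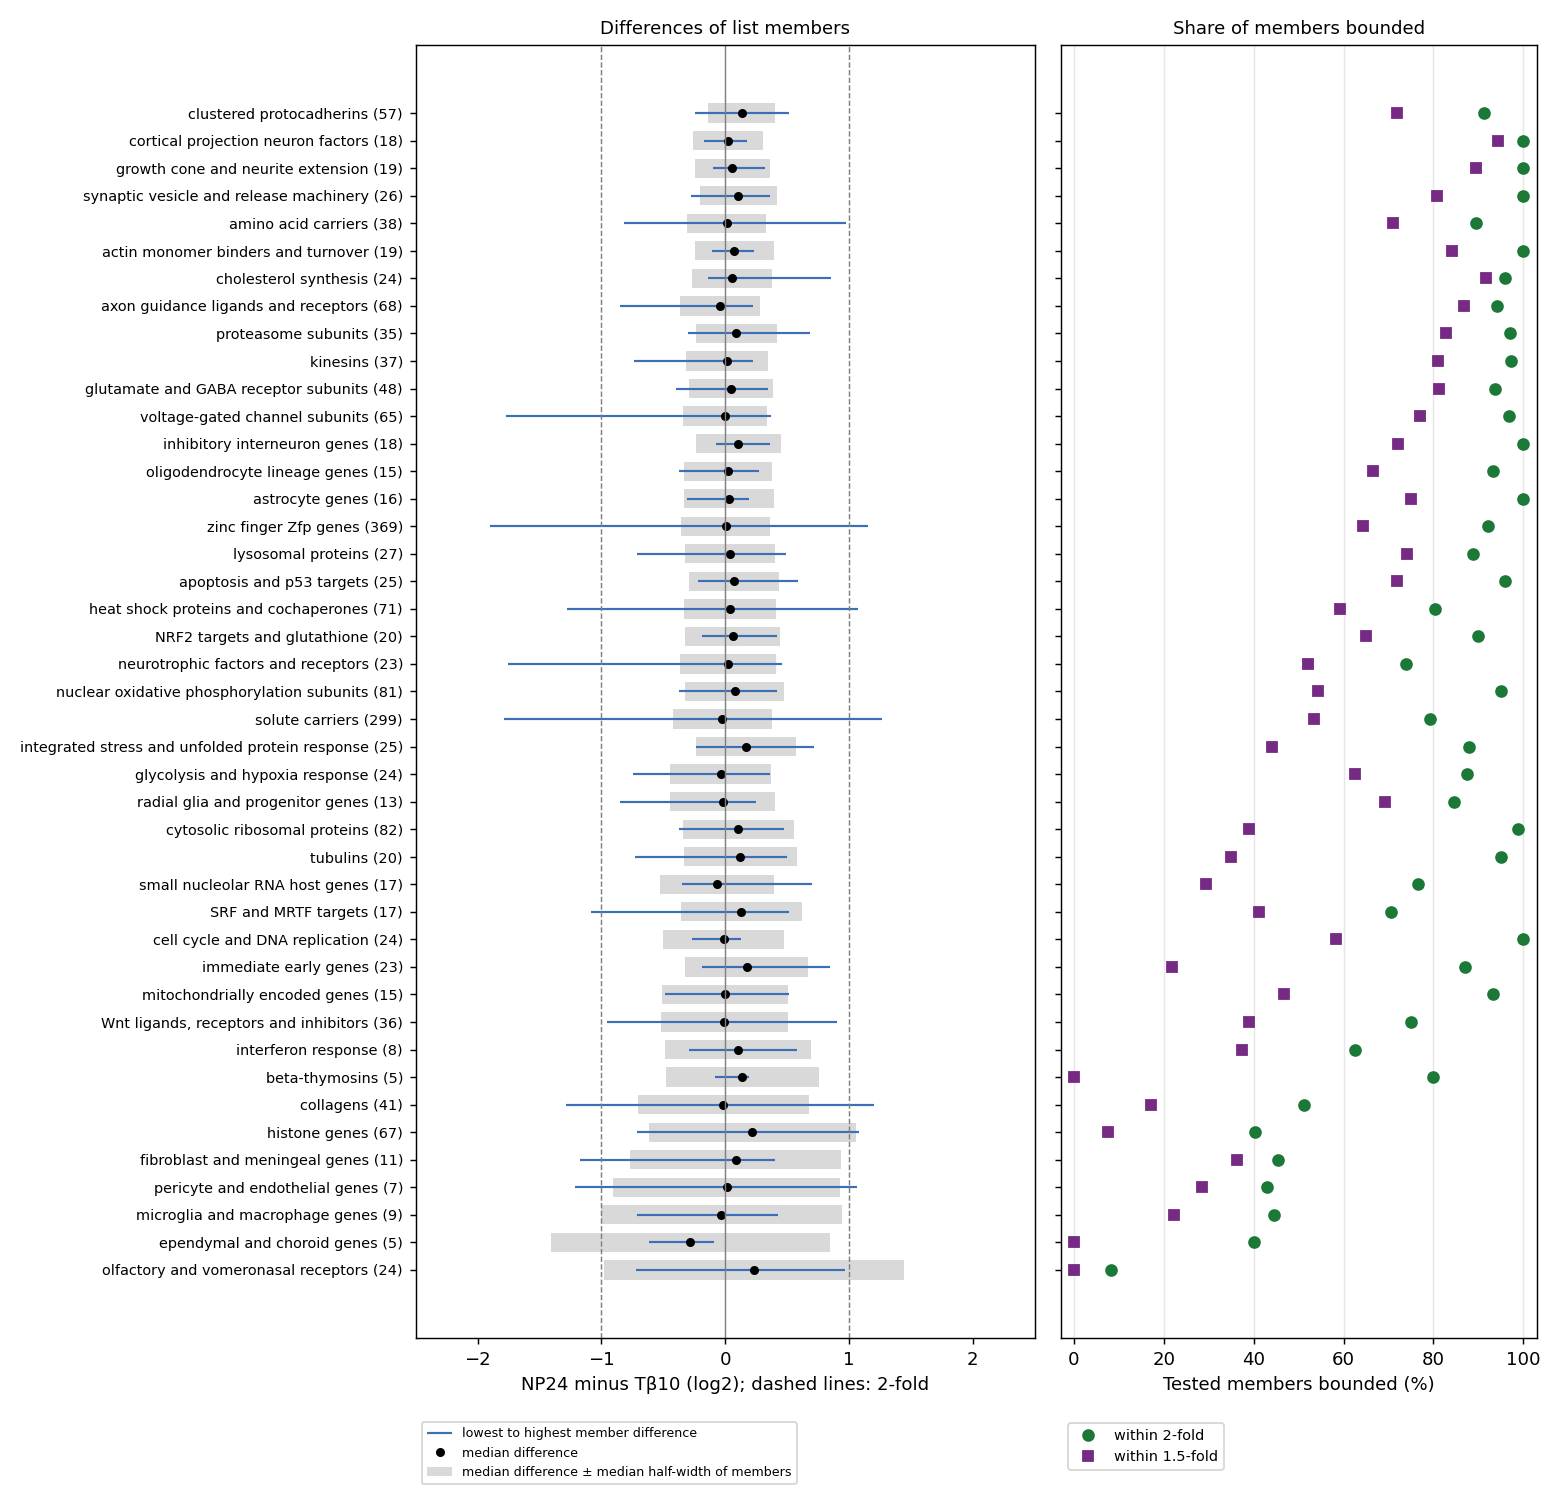
NP24 minus Tβ10 by gene family. The left panel gives each list's median difference (points), that median ± the median half-width (grey) and the lowest to highest member (lines) in log2 units, and the right panel the percent of tested members bounded within 2-fold and 1.5-fold. Medians lie between -0.28 and 0.23.

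The β-thymosin genes, which encode Tβ10 itself and its relatives, gave a median difference of 0.14 (-0.18 to 0.37 in the other settings). Of 6 listed, 5 were tested, 4 were bounded within 2-fold and 0 within 1.5-fold. Tmsb10 (ENSMUSG00000079523.8, GRCm38 chromosome 6, 72957347 to 72958748, minus strand) had 3370.4, 3318, 2387 and 1906 normalized counts with NP24, against 1476, 3566, 2364 and 2452 with Tβ10. The groups overlapped, the Tβ10 libraries held both the lowest and the highest value, and the difference was 0.18 (95% interval -0.28 to 0.65). Tmsb4x (ENSMUSG00000049775.16, GRCm38 chromosome X, 167207093 to 167209315, minus strand) had 3485, 3603, 3507 and 2519 with NP24, against 1911, 4797, 3320.1 and 2489.8 with Tβ10, a difference of 0.14 (95% interval -0.31 to 0.59). For both genes NP24 library 4 was the lowest of its group and Tβ10 libraries 1 and 2 were the extremes of theirs. Tmsb15b1 was read least and had the widest interval of the list, with 34.3, 29.8, 33.6 and 40.02 counts with NP24, 16.1, 68.8, 45.04 and 15.3 with Tβ10 and a difference of 0.20 (95% interval -0.81 to 1.198). Neither of the main thymosin genes differed between the peptides beyond the spread between libraries, and both were bounded within 2-fold.

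Of the genes that turn actin over, all 19 tested were bounded within 2-fold and 16 within 1.5-fold, about as many as the 18.9 and 16.5 that the share of all genes at their levels would give, with a median difference of 0.073 (-0.020 to 0.17 in the other settings) and a median half-width of 0.32. Cfl1, cofilin, which severs filaments, had 5659.7, 4803, 4914 and 3738 counts with NP24, against 2513, 5941, 4702 and 4008 with Tβ10, a difference of 0.21 (95% interval -0.22 to 0.63). Pfn1, profilin, which feeds actin monomers to growing filaments, had 827, 823, 609.9 and 445 with NP24, against 333, 774, 629 and 648 with Tβ10, and the widest interval of the list at -0.30 to 0.71. Actr2, a subunit of the branching complex Arp2/3, gave 0.048 (95% interval -0.21 to 0.30) and was bounded within 1.5-fold, and so was Wasf1, an activator of that complex, at 0.14 (95% interval -0.081 to 0.37).

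Of the targets of SRF and the MRTF coactivators, 12 and 7 of 17 tested were bounded within 2-fold and 1.5-fold, where their levels would give 11.8 and 9.19. Their median difference was 0.13 (0.045 to 0.24 in the other settings), and members ran from -1.08 to 0.51. Actb, β-actin, had 31535, 26620, 25307 and 19444 counts with NP24, against 12851, 33251, 26255 and 25628 with Tβ10, a difference of 0.13 (95% interval -0.36 to 0.62). Filip1l, another highly read member, gave 0.35 (95% interval -0.22 to 0.93). The wide members were smooth muscle genes read near the floor of detection. Acta2, smooth muscle actin, had 46.3, 7.46, 5.80 and 7.12 with NP24, against 21.4, 49.9, 24.3 and 10.2 with Tβ10, and one NP24 library stood above the other 3. Its interval of -2.38 to 0.45 and that of Cnn1, the smooth muscle protein calponin, at -2.37 to 0.20 each allow a level more than 4-fold lower with NP24.

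Tubulins and their relatives, the building blocks of microtubules, were highly read yet varied between libraries of 1 peptide. Of 20 tested, 19 were bounded within 2-fold and 7 within 1.5-fold, where their levels would give 14.5 within 1.5-fold, and the median difference was 0.12 (-0.020 to 0.26 in the other settings). Tubb5 had 19907, 17641, 14820 and 11903 counts with NP24, against 8145, 19347, 14957 and 15389 with Tβ10, a difference of 0.19 (95% interval -0.27 to 0.65). Tubb2b had 11292, 11531, 9437 and 7449 with NP24, against 5398, 13575, 8924 and 8063 with Tβ10, a difference of 0.20 (95% interval -0.25 to 0.65). Both ranged by more than 2-fold within Tβ10, low in library 1 and high in library 2, although both are among the most read genes. Tuba1b, with 911, 1144, 1579 and 800.5 counts with NP24, against 763, 2389, 858 and 546 with Tβ10, had the widest interval, -0.53 to 0.84, and Tβ10 library 2 stood above the other 7. Tube1, ε-tubulin of the centriole, was the 1 member of the 20 whose groups did not overlap, where 1.92% of all tested genes did not. It had 65.8, 84.2, 60.3 and 80.9 counts with NP24, against 119, 116, 113 and 133 with Tβ10. Its difference of -0.73 (95% interval -1.22 to -0.23) did not pass the adjusted threshold and was not bounded. Kinesins, the motors that run on microtubules, were bounded in 36 of 37 cases within 2-fold and in 30 within 1.5-fold, where their levels would give 25.1. Kif1b, a carrier of synaptic vesicle precursors, had 17562, 17824, 17480 and 17539 counts with NP24, against 15185, 19501, 16709 and 16927 with Tβ10, a difference of 0.049 (95% interval -0.20 to 0.30). Kif5c, a neuronal conventional kinesin, gave 0.16 (95% interval -0.097 to 0.42).

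The integrated stress response raises ATF4, a transcription factor that binds amino acid response elements and switches on genes of amino acid supply. The list of its targets and of the unfolded protein response held 25 tested genes, of which 22 were bounded within 2-fold and 11 within 1.5-fold, where their levels would give 21.6 and 14.9. The point difference lay above 0 in 22 of the 25, against 11226 of all 21852 tested genes. With Tβ10 library 1 left out it did so in 15 of the 25. The members were measured in the same libraries and are not independent, so this count is no test. The list median was 0.17 (0.028 to 0.25 in the other settings). The promoters of 3 members that the results turn on are printed here because each holds the letters TGATGNAA on one strand or the other, a form of the amino acid response element. They are from RefSeq (GRCm38.p6), 250 bases before to 50 after the annotated start, and capitals mark the matches.
Slc7a11 promoter, chr3:50443564-50443863 (minus strand): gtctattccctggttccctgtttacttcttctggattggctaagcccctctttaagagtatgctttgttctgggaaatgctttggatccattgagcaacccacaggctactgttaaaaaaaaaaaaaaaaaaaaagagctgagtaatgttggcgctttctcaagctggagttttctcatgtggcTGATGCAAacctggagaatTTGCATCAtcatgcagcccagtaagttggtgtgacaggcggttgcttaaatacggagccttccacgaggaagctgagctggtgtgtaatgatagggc
Trib3 promoter, chr2:152344011-152344310 (minus strand): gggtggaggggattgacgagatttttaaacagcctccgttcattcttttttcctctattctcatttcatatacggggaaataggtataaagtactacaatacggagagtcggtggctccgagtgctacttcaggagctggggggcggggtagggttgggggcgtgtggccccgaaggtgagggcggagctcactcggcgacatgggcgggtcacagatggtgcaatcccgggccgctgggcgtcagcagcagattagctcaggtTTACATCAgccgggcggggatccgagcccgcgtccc
Chac1 promoter, chr2:119350992-119351291 (plus strand): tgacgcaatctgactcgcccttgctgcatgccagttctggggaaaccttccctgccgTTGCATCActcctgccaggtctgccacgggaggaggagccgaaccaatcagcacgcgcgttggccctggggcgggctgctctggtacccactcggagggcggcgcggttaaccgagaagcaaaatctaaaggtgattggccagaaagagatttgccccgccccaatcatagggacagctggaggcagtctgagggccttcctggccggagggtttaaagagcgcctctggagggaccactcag
The Slc7a11 window holds 2 matches and each of the others 1. The motif occurs in 3.969% of 32851 promoter windows of this length, and in 8 of the 23 list genes with a window. A match describes the letters only, and no binding was measured.

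Slc7a11, which carries cystine into cells in exchange for glutamate and whose promoter is the first above (ENSMUSG00000027737.10, GRCm38 chromosome 3, 49892526 to 50443614, minus strand), had 347, 403, 372 and 364 counts with NP24, against 484, 543, 376 and 372 with Tβ10. Tβ10 libraries 3 and 4 lay among the NP24 values and Tβ10 libraries 1 and 2 above them, and the difference of -0.24 (95% interval -0.57 to 0.093) was bounded within 1.5-fold. Both groups were far below Ctrl, where Slc7a11 averaged 1856 ± 581 (SD, n = 4). Trib3, a pseudokinase induced by ATF4, had 43.5, 40.5, 62.6 and 30.2 with NP24, against 55.7, 52.1, 21.6 and 47.8 with Tβ10, a difference of 0.036 (95% interval -0.78 to 0.85) bounded within 2-fold only. Chac1, which degrades glutathione, was the 1 member of the 25 whose groups did not overlap, where 1.92% of all tested genes did not. The groups were only just apart, with 142, 144, 99.7 and 91.6 counts with NP24, against 36.98, 90.97, 87.4 and 83.6 with Tβ10. Its difference of 0.72 (95% interval 0.070 to 1.37) did not pass the adjusted threshold and was not bounded. The interval leaves anything from near equality to more than a 2-fold excess with NP24, and Tβ10 library 1 lay well below the other 3. Atf3 had 25.9, 109.8, 19.7 and 20.5 with NP24, against 21.4, 28.8, 18.02 and 17.1 with Tβ10, and its interval, the widest of the list at -0.48 to 1.74, came with NP24 library 2 well above all others. Hspa5, the chaperone BiP of the endoplasmic reticulum, and Vldlr, the most read members, gave 0.11 (95% interval -0.28 to 0.50) and 0.017 (95% interval -0.24 to 0.27) and were bounded within 1.5-fold.

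Targets of NRF2, which answers oxidative stress, were bounded in 18 of 20 cases within 2-fold and 13 within 1.5-fold, with a median difference of 0.061 (-0.050 to 0.15 in the other settings). Nfe2l2, which encodes NRF2, had 169.5, 209, 189 and 221 counts with NP24, against 181, 182, 162 and 131 with Tβ10, overlapping groups with a difference of 0.27 (95% interval -0.14 to 0.67). Fth1, the ferritin heavy chain, gave 0.22 (95% interval -0.21 to 0.66) and was bounded within 2-fold only. Osgin1 was too sparsely read to be bounded, at -0.70 to 1.54. Among heat shock proteins and cochaperones 57 of 71 were bounded within 2-fold and 42 within 1.5-fold. Members of this list were taken by symbol, and its widest half-width, 1.81, was that of the pseudogene Hspe1-ps3. Hsp90ab1, a cytosolic HSP90, had 22233, 21818, 17449 and 13903 with NP24, against 10463, 20994, 17224 and 16226 with Tβ10, a difference of 0.23 (95% interval -0.18 to 0.65). Hspa1a, the inducible HSP70, was read at 15.8, 24.5, 32.5 and 28.5 counts with NP24, against 15.01, 17.8, 10.8 and 5.12 with Tβ10, and its interval of -0.037 to 2.18 allowed more than a 4-fold excess with NP24. In the apoptosis and p53 list 24 of 25 genes were bounded within 2-fold and 18 within 1.5-fold. Bcl2l1, which opposes cell death, gave 0.15 (95% interval -0.10 to 0.39). Bbc3, the p53 target PUMA, had 440.1, 419.96, 231 and 287 with NP24, against 217, 241, 239.6 and 317 with Tβ10, with 2 NP24 libraries above every Tβ10 library and 2 among them, a difference of 0.41 (95% interval -0.040 to 0.85).

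Among metabolic lists, cholesterol synthesis was the most tightly bounded, with 23 and 22 of 24 genes bounded within 2-fold and 1.5-fold, where their levels would give 23.0 and 19.96. Hmgcs1, an early enzyme of the pathway, had 11588, 10465, 11396 and 10753 counts with NP24, against 7168, 15347, 11422 and 8643 with Tβ10, so that the NP24 libraries nearly coincided while the Tβ10 libraries ranged by more than 2-fold. The difference was 0.11 (95% interval -0.27 to 0.49). Ebp, a sterol isomerase read far less, was the 1 member not bounded, with 100.1, 78.9, 102 and 96.9 counts with NP24, against 53.6, 84.3, 53.1 and 28.99 with Tβ10 and a difference of 0.86 (95% interval 0.19 to 1.53).

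Glycolytic and hypoxia genes were bounded in 21 of 24 cases within 2-fold and in 15 within 1.5-fold, with a median of -0.037 (-0.10 to 0.028 in the other settings). Pfkp, phosphofructokinase, had 3462, 5298, 5517 and 5768 with NP24, against 6913, 5106, 5707 and 5738 with Tβ10, a difference of -0.25 (95% interval -0.57 to 0.077), and Pkm, pyruvate kinase, gave -0.11 (95% interval -0.36 to 0.14). Nuclear genes of oxidative phosphorylation were bounded in 77 of 81 cases within 2-fold but in only 44 within 1.5-fold. At the level of each member, the share of all genes bounded within 1.5-fold would give 59.7. Atp5o, an ATP synthase subunit, was among the most evenly read genes of the study, with 9135, 9309.6, 9375 and 9340.3 counts with NP24, against 9516, 9169, 9053 and 9954 with Tβ10 and a difference of -0.020 (95% interval -0.24 to 0.20). Atp5a1, another subunit, ranged from 2210 to 5184 within Tβ10 and gave 0.16 (95% interval -0.27 to 0.59).

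Of the 15 tested genes encoded by the mitochondrial genome, 14 were bounded within 2-fold and 7 within 1.5-fold. The rRNA genes mt-Rnr1 and mt-Rnr2 took 5.98% to 8.12% of reads with NP24, 4.76% to 9.53% with Tβ10 and 9.32% to 14.2% in Ctrl. The mt-Rnr2 difference was 0.080 (95% interval -0.61 to 0.77), with Tβ10 library 2 the highest of the 8 libraries and Tβ10 library 4 the lowest. The list median was -0.00026 (-0.17 to 0.14 in the other settings).

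Cytosolic ribosomal proteins were well read but many were bounded within 2-fold only. Of 82 tested, 81 were bounded within 2-fold and 32 within 1.5-fold, where their levels would give 59.1 from the share of all genes. Their median difference was 0.11 (-0.035 to 0.23 in the other settings). Rpl4 had 3444, 3140.1, 3470.2 and 2591 counts with NP24, against 2015, 4423, 3471 and 3218 with Tβ10, a difference of -0.0085 (95% interval -0.40 to 0.38). Rps3, the member with 3559, 4024, 2750.2 and 2337 with NP24, against 1877, 3668, 2458 and 1924 with Tβ10, gave 0.37 (95% interval -0.047 to 0.80). In each, Tβ10 library 2 was high within its group, and Tβ10 library 1 was low. The proteasome, which degrades ubiquitinated proteins, was bounded in 34 of 35 subunits within 2-fold and 29 within 1.5-fold. Its exception was Psmb10, a subunit of the immunoproteasome, with 62.1, 107, 64.9 and 60.5 counts with NP24, against 43.4, 69.9, 37.8 and 32.4 with Tβ10 and a difference of 0.69 (95% interval -0.010 to 1.39). Lysosomal proteins were bounded in 24 of 27 cases within 2-fold and 20 within 1.5-fold, with Psap, the precursor of the saposins, at 0.038 (95% interval -0.28 to 0.36).

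Cell cycle genes were bounded within 2-fold in all 24 cases and within 1.5-fold in 14, where their levels would give 20.98 and 10.9. Mki67, the proliferation marker, had 2119, 2242, 2190.2 and 1904 counts with NP24, against 1755, 2481, 2011 and 2285 with Tβ10, a difference of -0.0037 (95% interval -0.26 to 0.26), and Ccnd2, cyclin D2, gave -0.018 (95% interval -0.33 to 0.30). Histone genes were among the least bounded of the larger lists, with 27 of 67 within 2-fold and 5 within 1.5-fold, where their levels would give 36.7 and 14.8, and a median difference of 0.22 (-0.040 to 0.38 in the other settings). Many replication-dependent histone genes are near-identical copies, so reads could be split among them and their values are uncertain. Hist1h4h had 327, 284, 128 and 115 with NP24, against 64.8, 149.8, 97.3 and 90.4 with Tβ10, a difference of 0.99 (95% interval 0.28 to 1.70) that did not pass the adjusted threshold. H2afy, the histone variant macroH2A and a single gene, gave -0.075 (95% interval -0.29 to 0.14).

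Most members of the neuronal families were bounded, about as many as their levels would give. Synaptic vesicle genes were bounded in all 26 cases within 2-fold and in 21 within 1.5-fold, where their levels would give 25.8 and 23.3. Their median was 0.11 (0.065 to 0.16 in the other settings). Syt1, the calcium sensor of vesicle release, had 12226, 10380, 12451 and 14064 counts with NP24, against 14671, 10492, 11726 and 10638 with Tβ10, a difference of 0.053 (95% interval -0.24 to 0.34). Sv2b, a vesicle glycoprotein, was one of 2 members of the 26 whose groups did not overlap, where 1.92% of all tested genes did not. It had 474, 383, 419.7 and 362 with NP24, against 346, 354, 323 and 254 with Tβ10 and a difference of 0.36 (95% interval 0.026 to 0.70), bounded within 2-fold. Growth cone genes were bounded in all 19 cases within 2-fold and in 17 within 1.5-fold, where their levels would give 18.8 and 17.4. Map1b, the microtubule-associated protein of growing axons, had 89093, 98525, 94288 and 86185 with NP24, against 75224, 104090, 86695 and 86516 with Tβ10, a difference of 0.070 (95% interval -0.28 to 0.42). Marcksl1, an actin-binding protein of the membrane, had the widest interval of the list at -0.14 to 0.79.

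Glutamate and GABA receptor subunits were bounded in 45 of 48 cases within 2-fold and 39 within 1.5-fold. Grin2b, an NMDA receptor subunit, had 28040, 28507, 30619 and 33217 counts with NP24, against 31217, 28362, 27958 and 30030 with Tβ10, a difference of 0.032 (95% interval -0.24 to 0.30), and Gria2, of AMPA receptors, gave -0.12 (95% interval -0.44 to 0.19). Voltage-gated channel subunits were bounded in 63 of 65 cases within 2-fold and 50 within 1.5-fold, led in level by Cacna1c at 0.037 (95% interval -0.33 to 0.40). Scn10a, a sodium channel known from sensory neurons, was read at 12.04, 2.13, 4.64 and 4.45 with NP24, against 12.9, 11.1, 18.9 and 49.5 with Tβ10, too low for a bound, with an interval of -3.21 to -0.33. Axon guidance genes were bounded in 64 of 68 cases within 2-fold and 59 within 1.5-fold, and Plxna4, a semaphorin receptor, gave -0.039 (95% interval -0.35 to 0.28). Of the cortical projection neuron factors all 18 were bounded within 2-fold and 17 within 1.5-fold, among them Bcl11b at 0.14 (95% interval -0.083 to 0.36). All 18 interneuron genes were bounded within 2-fold and 13 within 1.5-fold, where their levels would give 17.8 and 14.7. Among them Reln, the secreted protein reelin, was at 0.15 (95% interval -0.079 to 0.37) and Maf at 0.31 (95% interval 0.037 to 0.58).

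Clustered protocadherins, cell-surface proteins from which neurons build individual identities, had the narrowest intervals of the 43 lists, with a median half-width of 0.27. Of 57 tested, 52 were bounded within 2-fold and 41 within 1.5-fold, and the point difference lay above 0 in 55. It lay above 0 in 11226 of all 21852 tested genes. From 3000 to 10000 counts, the range of this list's median level, it did so in 767 of 1066 genes. Members measured in the same libraries are not independent, so the count of signs is no test. The median of 0.13 (0.086 to 0.23 in the other settings) kept its sign in all 12 other settings. Genes of the α and of the γ cluster share exons at their 3′ end, so their values may hold reads in common, and how many was not measured. Pcdhga1 and Pcdhga2, for instance, had nearly equal counts in each library and differences of 0.18 (95% interval -0.068 to 0.43) and 0.18 (95% interval -0.065 to 0.43). Pcdhb15, whose cluster of single-exon genes shares no such exon, had 100.1, 58.6, 107 and 113 with NP24, against 57.9, 88.8, 43.2 and 75.03 with Tβ10, overlapping groups with an interval of -0.13 to 1.16.

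Signalling lists split by level. Of 23 neurotrophic factors and receptors, 17 were bounded within 2-fold and 12 within 1.5-fold. Ntrk2, the receptor of BDNF, had 16527, 14817, 16802 and 16588 counts with NP24, against 17192, 13634, 15450 and 17659 with Tβ10, a difference of 0.023 (95% interval -0.24 to 0.28), and Ntrk3, the receptor of neurotrophin-3, gave -0.10 (95% interval -0.40 to 0.19). Cntf, ciliary neurotrophic factor, did not overlap between groups at a low level, with 7.41, 8.53, 6.96 and 6.23 with NP24, against 33.8, 26.6, 19.8 and 28.99 with Tβ10. Its difference of -1.76 (95% interval -2.82 to -0.70) did not pass the adjusted threshold. Of 36 Wnt genes 27 were bounded within 2-fold and 14 within 1.5-fold. The receptors Fzd3 and Lrp6, both highly read, gave -0.049 (95% interval -0.33 to 0.23) and 0.013 (95% interval -0.20 to 0.23). Lgr5, a receptor for R-spondins, had 108, 104, 57.97 and 146 with NP24, against 87.4, 26.6, 72.1 and 44.3 with Tβ10, overlapping groups with a difference of 0.91 (95% interval 0.11 to 1.70).

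Immediate early genes, which follow neuronal activity, were bounded in 20 of 23 cases within 2-fold and in 5 within 1.5-fold, where their levels would give 19.5 and 10.5, with a median of 0.17 (0.028 to 0.32 in the other settings). Nr4a3, a nuclear receptor gene, had 3263, 3497, 2860.3 and 2372 counts with NP24, against 1947, 2979, 2604 and 2343 with Tβ10, a difference of 0.28 (95% interval -0.027 to 0.59). Npas4, a transcription factor induced by calcium influx, gave -0.18 (95% interval -0.58 to 0.21). Amino acid carriers were bounded in 34 of 38 cases within 2-fold and 27 within 1.5-fold. Slc1a3, a glutamate carrier of astrocytes, gave 0.073 (95% interval -0.19 to 0.34), and Slc7a1, a carrier of cationic amino acids, had 1931, 2227, 1864 and 1646 with NP24, against 1197, 1981, 1589 and 1429 with Tβ10 and a difference of 0.32 (95% interval 0.012 to 0.63). Over the broad class of 299 solute carriers 237 were bounded within 2-fold and 160 within 1.5-fold. Of 369 Zfp zinc finger genes 340 and 237 were bounded. Of 1258 olfactory and vomeronasal receptor genes, 24 were read enough to be tested, 2 were bounded within 2-fold, and the median half-width was 1.21.

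Genes of glia were mostly bounded. All 16 astrocyte genes were bounded within 2-fold and 12 within 1.5-fold, where their levels would give 15.5 and 13.5. Gfap, the astrocyte filament protein, had 533, 520.2, 401 and 506 counts with NP24, against 436, 670.1, 637 and 713 with Tβ10, and its difference was -0.31 (95% interval -0.66 to 0.040). Of 15 oligodendrocyte lineage genes 14 were bounded within 2-fold and 10 within 1.5-fold, where their levels would give 13.9 and 11.2. Mbp, myelin basic protein, did not overlap between groups, with 3596, 3204, 2764 and 3224 with NP24, against 3939, 4110.4, 3610.1 and 3881 with Tβ10, yet its difference of -0.29 (95% interval -0.52 to -0.051) was bounded within 1.5-fold. Tnc, tenascin C, of the radial glia list, was alike in this, with 3005, 2743, 3063 and 3004 with NP24, against 3747, 3444, 3586 and 3632 with Tβ10 and a difference of -0.29 (95% interval -0.50 to -0.073). For neither did the adjusted p pass.

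Genes of connective tissue, vessels and immune cells were in many cases read too little to be bounded. Of 9 microglia and macrophage genes 4 were bounded within 2-fold, and the median half-width was 0.97. The 10 markers of microglia and macrophages summed to 1794 to 1923 with NP24, 1701 to 2089 with Tβ10 and 2005 to 2389 in Ctrl. Cx3cr1 made up most of that sum, and Tmem119 was at 0 in 7 of the 8 peptide libraries. The mean log2 level of the 9 tested genes, which gives each the same weight, was 5.39 to 5.57 with NP24, 4.88 to 6.13 with Tβ10 and 6.62 to 7.16 in Ctrl. Lyz2, a lysozyme of macrophages, had 6.40 to 25.5 counts with NP24, 4.82 to 24.4 with Tβ10 and 59.9 to 146 in Ctrl, and Cd68, a lysosomal protein of macrophages, had 51.0 to 73.5 with NP24, 46.6 to 93.8 with Tβ10 and 124 to 232 in Ctrl. In both genes the peptide groups overlapped each other and lay below every Ctrl library. The most read markers did not share this. Cx3cr1 had 1303 to 1383 counts with NP24, 1190 to 1602 with Tβ10 and 1229 to 1379 in Ctrl. P2ry12 had 268 to 336 with NP24, 295 to 367 with Tβ10 and 294 to 478 in Ctrl. Of 41 collagens 21 were bounded within 2-fold and 7 within 1.5-fold, and the type IV chains Col4a1 and Col4a2 gave 0.16 (95% interval -0.11 to 0.43) and 0.16 (95% interval -0.090 to 0.41). Col3a1, of fibrillar collagen, had 16.7, 11.7, 3.48 and 6.23 with NP24, against 4.29, 19.97, 15.3 and 1.71 with Tβ10, and an interval of -1.54 to 1.83. The 5 fibroblast markers summed to 19.7 to 66.1 with NP24, 24.7 to 67.7 with Tβ10 and 184 to 317 in Ctrl. The lower sum with the peptides came from Col1a1, Col1a2 and Col3a1. Dcn averaged 2.04 with NP24, 5.62 with Tβ10 and 2.10 in Ctrl, and Lum 0.29, 0.72 and 0, both near the floor of detection. The 6 pericyte and endothelial markers summed to 524 to 697 with NP24, 437 to 602 with Tβ10 and 713 to 1133 in Ctrl, with Cldn5 at 0 in all 8 peptide libraries. Cspg4, also counted above as a marker of the oligodendrocyte lineage, made up most of that sum in the peptide libraries. It had 289 to 475 counts with NP24, 264 to 375 with Tβ10 and 320 to 559 in Ctrl. Pecam1 and Flt1 also overlapped Ctrl with 1 peptide each, while Rgs5 and Pdgfrb lay below every Ctrl library with both. Of 5 ependymal genes 2 were bounded within 2-fold.

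When the members of a list were averaged in each library, on the log2 scale, NP24 and Tβ10 overlapped in all 43 lists. Within Tβ10, library 1 was the lowest of the 4 in 28 lists and library 2 the highest in 28. Within NP24, library 4 was the lowest in 22. These libraries also differed in how level went with transcript length. Per doubling of length, the deviation of a gene from its 8-library mean changed by -0.035, -0.052, 0.0094 and 0.058 in NP24 libraries 1 to 4, and by 0.10, -0.075, -0.0073 and 0.00077 in Tβ10 libraries 1 to 4, over 11122 genes. Tβ10 libraries 1 and 2 were thus the extremes in both measures. The slope was computed from these same values and chosen after seeing them. A smaller spread with it as a covariate is therefore partly built in, and its part in the spread was not tested. With this slope as a covariate, the numbers bounded within 1.5-fold were 68 of 82 for ribosomal proteins, 68 of 81 for oxidative phosphorylation and 13 of 20 for tubulins, against 32, 44 and 7 without it. Without Tβ10 library 1 they were 44, 59 and 13, and the 3 list medians were -0.035, -0.045 and -0.020.

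**Figure D3:**
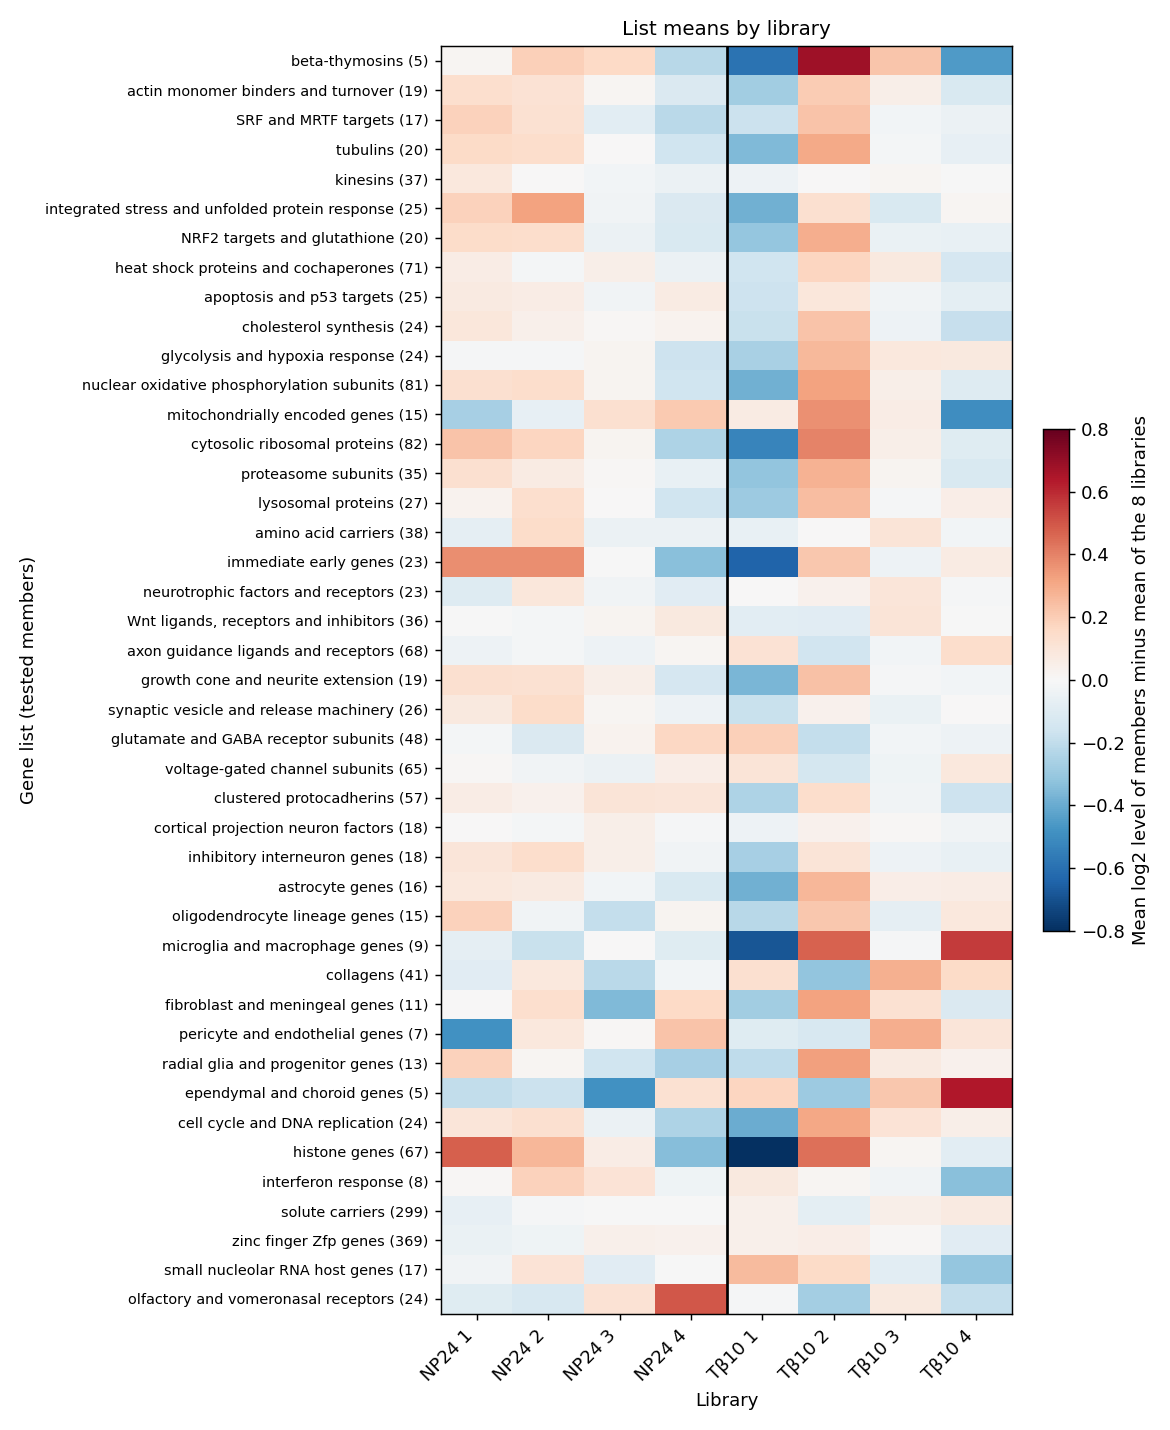
Mean log2 level of each gene list (down) in each NP24 and Tβ10 library (across), coloured by its deviation from the mean of the 8 libraries. The groups overlap in all 43 lists, and Tβ10 library 1 is the lowest of its group in 28 and Tβ10 library 2 the highest in 28.

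The genes whose mean over both peptides differed from Ctrl form a set chosen without use of the difference between the peptides. Each peptide was not tested alone against Ctrl for them. The choice favours genes with little spread between the same libraries, and little spread also narrows the interval between the peptides. A pooled change larger than the difference and its half-width is therefore partly built in, and the counts below do not test whether the peptides acted alike. In a fit of 12 libraries, the mean of NP24 and Tβ10 differed from Ctrl in 495 of 23082 genes (2.14%), 186 higher (0.806%) and 309 lower (1.34%). Of these 490 were also tested between the peptides, at a median level of 417 counts against 199 over all tested genes. Of the 490, 427 (87.1%) were bounded within 2-fold and 309 (63.1%) within 1.5-fold, against 71.6% and 45.5% of all tested genes. The median size of the pooled change of the 490 was 0.64, against a median size of 0.11 for the difference between NP24 and Tβ10. The difference was less than 50% of the pooled change in 457 genes, and in 420 the difference and its half-width together stayed below it. For genes that rose, 176 and 145 of 186 were bounded, and for genes that fell 251 and 164 of 304. The 120 genes with a pooled change over 1 had a median level of 65.0 counts in the peptide libraries, and 62 of them were bounded within 2-fold and 11 within 1.5-fold. In 98 of the 120 the difference plus its half-width stayed below the pooled change.

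Slc7a11 fell by 2.14 relative to Ctrl in the pooled fit (limma adjusted p = 8.64e-08), where NP24 and Tβ10 differed by -0.24 (95% interval -0.57 to 0.093). Gpnmb, a lysosomal glycoprotein, fell by 3.39 (adjusted p = 1.42e-06), and had 34.3, 52.2, 83.5 and 42.7 counts with NP24, 15.01, 59.9, 38.7 and 44.3 with Tβ10 and 462 ± 109.6 in Ctrl. Its difference between peptides of 0.50 (95% interval -0.42 to 1.41) was not bounded, although the whole interval was smaller than the change from Ctrl. Aqp4, the astrocyte water channel, rose by 1.69 (adjusted p = 0.000472), with 458, 415, 330.4 and 334 with NP24, 252, 561, 448 and 302 with Tβ10 and 125 ± 49.8 in Ctrl. The peptides differed in it by 0.033 (95% interval -0.43 to 0.50). Ajap1, a protein of adherens junctions, rose by 0.86 (adjusted p = 0.000273) and differed by 0.14 (95% interval -0.15 to 0.42) between peptides. Klhl14, of a family of ubiquitin ligase adaptors, rose by 1.22 (adjusted p = 0.00154) and differed by 0.17 (95% interval -0.20 to 0.55). A2m, the protease inhibitor α2-macroglobulin, rose by 1.81 (adjusted p = 0.00633), and had 82.5, 58.6, 92.8 and 75.6 with NP24, 99.7, 165, 84.7 and 101 with Tβ10 and 30.2 ± 19.2 in Ctrl. Its difference of -0.51 (95% interval -1.08 to 0.064) was not bounded within 2-fold, so NP24 could lie at less than 50% of the Tβ10 level. Egr1 and Npas4, both activity-dependent, fell by 1.55 and 1.53 and differed by 0.082 (95% interval -0.44 to 0.61) and -0.18 (95% interval -0.58 to 0.21). The summed fibroblast and the summed pericyte markers given above were lower in all 8 peptide libraries than in every Ctrl library, and so was the mean log2 level of the microglia and macrophage genes. Single markers did not all follow, since Cspg4, Pecam1, Flt1, Cx3cr1, P2ry12, Aif1, C1qa and C1qb overlapped Ctrl with at least 1 peptide. So did Dcn, Lum, Tmem119 and Cldn5, which were read little or not at all. The mitochondrial rRNA share overlapped between Tβ10 and Ctrl, and mt-Rnr1 and mt-Rnr2 did not pass in the pooled fit (limma adjusted p = 0.190 and 0.136). The part of these cell types and of this RNA in the changes was not tested.

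**Figure D4:**
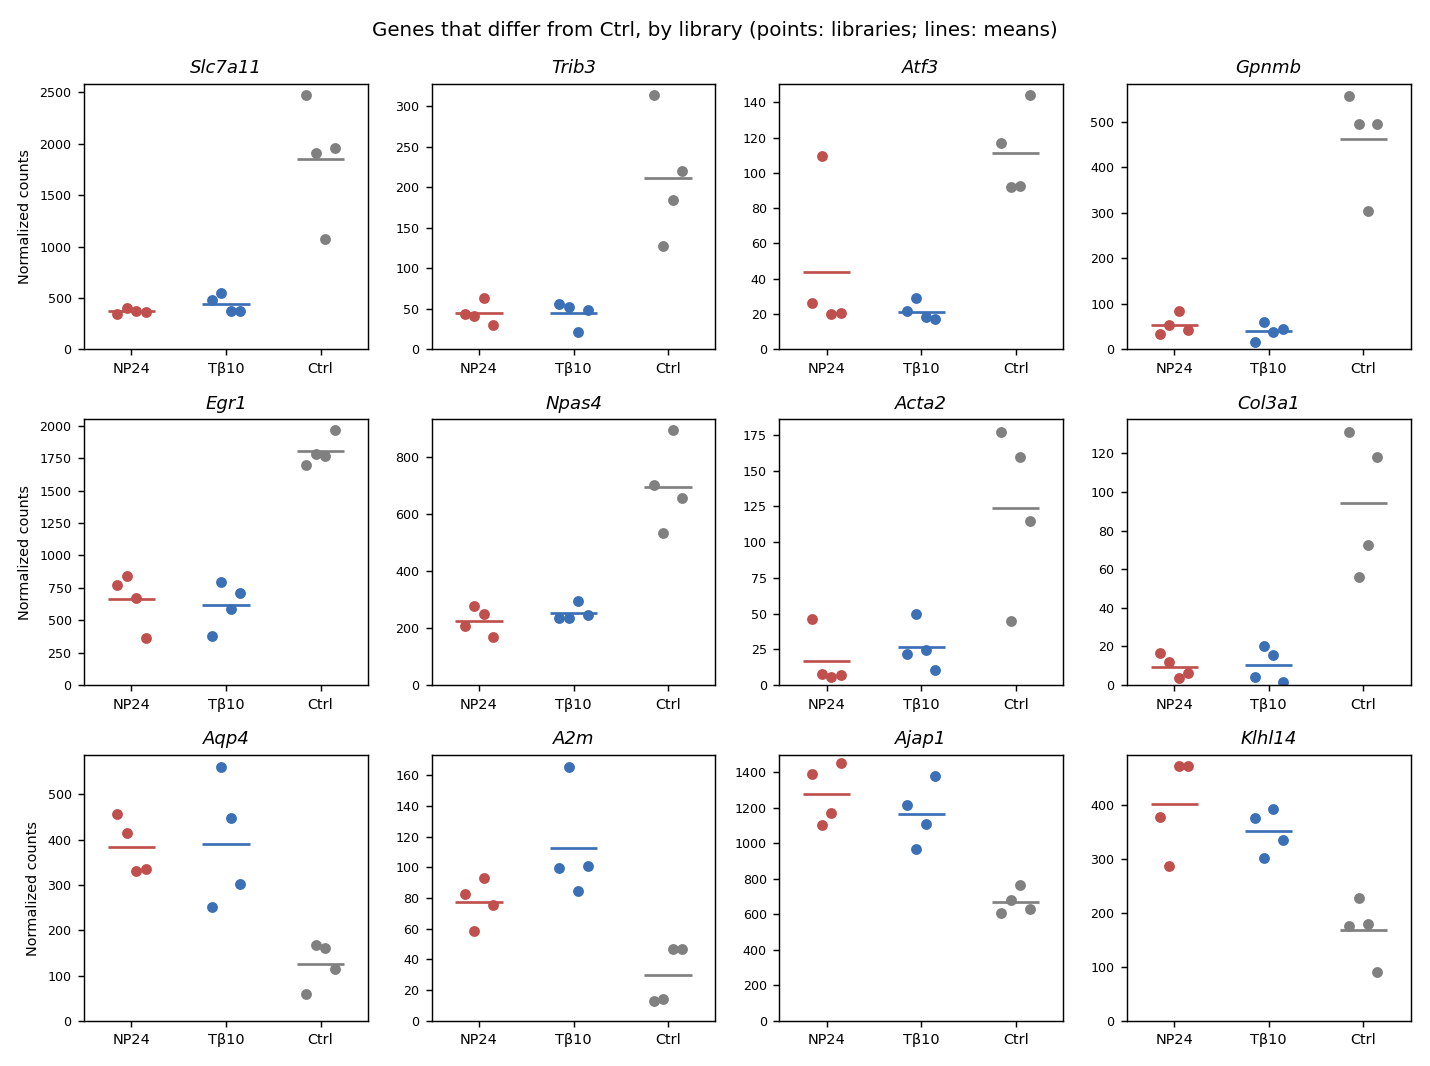
Normalized counts of 12 genes that differ from Ctrl in the pooled fit, by library, from 0, with NP24 left of Tβ10 and Ctrl last (points, libraries; lines, means). NP24 and Tβ10 points overlap for each gene, and for Slc7a11, Gpnmb and Trib3 both lie below every Ctrl library.

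The genes with the smallest p between the peptides, 6 in each direction among named genes with a mean of at least 50 counts, mark the edge of what the data could show. None passed, and each had a limma adjusted p of 0.99978. They were chosen by p in this comparison, so groups without overlap and intervals that leave out 0 follow largely from the choice. Pitpnm2os2, a transcript antisense to Pitpnm2 (ENSMUSG00000089842.2, GRCm38 chromosome 5, 124194907 to 124200346, plus strand), had 60.2, 73.5, 74.2 and 83.6 counts with NP24, against 22.5, 27.7, 30.6 and 37.5 with Tβ10. The groups did not overlap, and the difference was 1.29 (95% interval 0.62 to 1.96). The strand setting of the counting is not given in the sources used here, so its reads and those of Pitpnm2 may not be separate. Rgs11, a regulator of G protein signalling (ENSMUSG00000024186.15, GRCm38 chromosome 17, 26202951 to 26211324, plus strand), had 72.3, 106, 84.6 and 81.8 with NP24, against 226, 119.8, 164 and 186 with Tβ10 and 222 ± 55.4 in Ctrl (SD, n = 4), again without overlap between the peptides, and a difference of -0.98 (95% interval -1.49 to -0.47). It also changed against Ctrl in the pooled fit, by -0.84 (limma adjusted p = 0.0319). The gene overlaps Arhgdig. Cfdp1, a chromatin protein (ENSMUSG00000031954.6, GRCm38 chromosome 8, 111768491 to 111854291, minus strand), was the most highly read of the 12, with 2407, 2430.3, 2027 and 1978 with NP24, against 1551, 1794, 1809.6 and 1784 with Tβ10. All 4 NP24 libraries lay above all 4 of Tβ10, and the difference of 0.35 (95% interval 0.10 to 0.59) was bounded within 2-fold.

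Pdk3, a kinase that restrains pyruvate dehydrogenase (ENSMUSG00000035232.8, GRCm38 chromosome X, 93764607 to 93832201, minus strand), had 519.7, 447, 361 and 492 counts with NP24, against 331, 328, 337 and 298 with Tβ10, a difference of 0.48 (95% interval 0.15 to 0.80), bounded within 2-fold. Retreg1, an ER-phagy receptor (ENSMUSG00000022270.16, GRCm38 chromosome 15, 25843180 to 25973687, plus strand), had 863, 762.1, 700.3 and 921 with NP24, 667, 493, 584 and 653 with Tβ10 and 441 ± 82.7 in Ctrl. Apart from Rgs11 it was the 1 gene of the 12 that also changed against Ctrl in the pooled fit, by 0.67 (limma adjusted p = 0.00724), and the peptides differed in it by 0.44 (95% interval 0.14 to 0.74). Traf6, a ubiquitin ligase of immune signalling (ENSMUSG00000027164.8, GRCm38 chromosome 2, 101678429 to 101701669, plus strand), had 376, 401, 460.3 and 491 with NP24, against 538, 614, 646 and 599 with Tβ10 and a difference of -0.48 (95% interval -0.77 to -0.18), bounded within 2-fold. Slc30a10, a manganese exporter, had 152, 143, 106 and 162 with NP24, against 199.9, 199, 215 and 289.9 with Tβ10 and a difference of -0.68 (95% interval -1.12 to -0.24). The remaining 5 were Slc25a15, the mitochondrial ornithine carrier, at 0.77 (95% interval 0.23 to 1.32), Acyp2 at 0.61 (95% interval 0.18 to 1.04), Dnah3, an axonemal dynein, at -0.97 (95% interval -1.59 to -0.34), Cdh23, a cadherin of hair cells, at -1.02 (95% interval -1.68 to -0.36) and Asf1b, a histone chaperone, at -1.07 (95% interval -1.79 to -0.36). Of these 5, Dnah3 and Asf1b did not overlap between groups. Dnah3 overlaps Lyrm1 and Cdh23 overlaps Vsir, so their counts are uncertain.

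**Figure D5:**
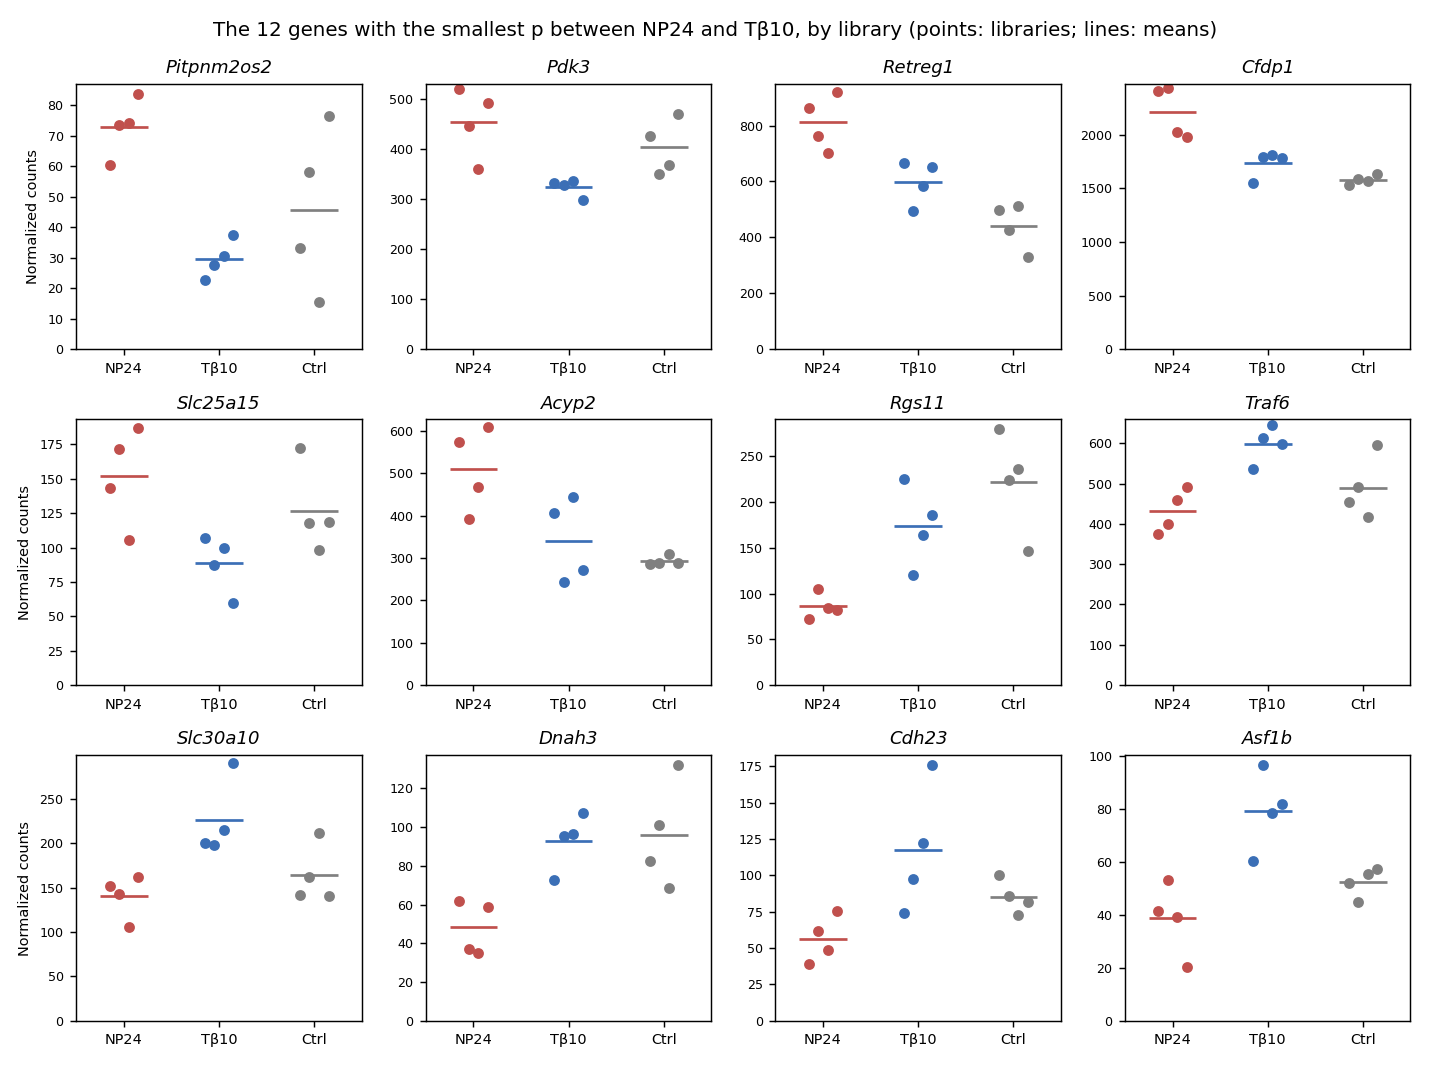
Normalized counts by library of the 12 named genes with the smallest p between NP24 and Tβ10, with NP24 left of Tβ10 and Ctrl last (points, libraries; lines, means). None passed the adjusted threshold. The groups do not overlap in 9 of the 12, which were chosen by p in this same comparison, against 1.92% of all tested genes.

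Among the 4363 genes with a mean of 1000 or more, 14 were not bounded within 2-fold, and most were short structural RNAs or genes that share their reads. Zc3h7a and the small gene Gm23935, which lie over each other on opposite strands, had differences of 0.68 (95% interval -0.057 to 1.42) and 0.75 (0.025 to 1.48). Rmrp, the RNA of RNase MRP, and Ccdc107, which overlaps it, had 0.96 (-0.0022 to 1.91) and 0.86 (-0.12 to 1.83). Rmrp is counted among the 14 under both ENSMUSG00000115420.1 and ENSMUSG00000088088.1, with the same values, so the 14 are not all separate RNAs. Rpph1, the RNA of RNase P, and Ccnb1ip1 shared nearly all their reads and each had 0.45. Snord15b, a small nucleolar RNA within Rps3, had 0.77 (0.11 to 1.44), and mt-Co1 had -0.49 (-1.22 to 0.25). Of the protein-coding genes the polyubiquitin gene Ubb had 0.59 (0.049 to 1.14) and Rmi1, which overlaps Hnrnpk on the opposite strand, had 0.59 (0.031 to 1.15).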

How the data were processed

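Per the labels' protocols, total RNA of cultured neurons was purified with the RNeasy Micro Kit and made into libraries with a SMARTer stranded total RNA kit. FastQC, a HISAT aligner (HISAT and HISAT2 are both named), featureCounts and DESeq2 are listed in the submitters' processing notes, with the build GRCm38; versions, annotation and strand setting are not given in the sources used here. The deposited values are a signal: each gene count was scaled by the authors with 1 size factor for the library. At least 99.97% of the nonzero values of each library were whole multiples of 1 read at a tolerance of 0.01 reads, so read counts could be recovered for depth, counting error and the count tests. The deposited tables of the authors' own fold changes were not used here.

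Because the values are not raw counts, limma-trend (limma 3.58.1, R 4.3.3) was fitted to log2(value + 1) of the 8 libraries, keeping genes that reached 10 normalized counts in 4 or more of them. Differences are on that scale, which understates those of low genes. Tests were two-sided with Benjamini-Hochberg adjustment over all 21852 genes and a threshold of 0.05. Bounds used a pair of one-sided moderated tests with margins of 1 and 0.585 on the log2 scale, the larger p of the pair being adjusted over all genes. All bounds are relative to the authors' size factors, so a shift of all genes together was not measured. The pooled fit took the 12 NP24, Tβ10 and Ctrl libraries. The scripts were tested on simulated data.

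The 8 libraries and the lists were chosen with earlier results of these data known. Genes were named by rule: the 6 per direction with the smallest p and a mean of at least 50 counts, leaving out unnamed gene models and pseudogenes. Each list gave its 2 most read members and those with the smallest p and the widest interval, and 13 genes were fixed; a few of the genes this rule names are not reported here. Positions are from GENCODE M21, in which 45045 of 45724 identifiers were found. As alternatives, the recovered reads were tested with DESeq2 1.42.0 and with edgeR 4.0.16, and the limma fit was repeated with other scalings, pseudocounts and filters, array weights, a length slope or the mitochondrial rRNA share as covariate, the spread of all 16 libraries, the replicate number as a block, and each library left out.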

Additional observations from a re-analysis of the deposited data

Results flagged for a closer look

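Among the named genes and list means, 446 groups of 4 libraries were examined, and in 16 of them (3.59%) 1 library stood apart from the other 3 by more than Dixon's critical share of the group's range. Chance flags about 1 in 20 such groups. NP24 library 2 accounted for 6 of the 16, NP24 library 1 for 4 and Tβ10 library 1 for 2, and NP24 libraries 3 and 4 and Tβ10 libraries 2 and 3 for 1 each.

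In NP24 library 2, Atf3 had 109.8 normalized counts, against 19.7 to 25.9 in the other NP24 libraries. The immunoproteasome gene Psmb10 had 107 there, against 60.5 to 64.9, and Stat2, of interferon signalling, had 434, against 316 to 332. Ntrk2 had 14817, against 16527 to 16802, and Pcdhb6 had 32.0, against 43.6 to 45.4. The mean log2 level of amino acid carriers was 9.23, against 9.01 to 9.03.

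In NP24 library 1, the smooth muscle gene Acta2 had 46.3 counts, against 5.80 to 7.46, and the basement membrane collagen Col4a4 had 104, against 51.0 to 56.5. Cx3cr1 of microglia had 1303, against 1379.7 to 1383 in the other NP24 libraries, a narrow gap in absolute terms. The mean log2 level of solute carriers was 7.80, against 7.86 in each of the others. In NP24 library 3 the mean of apoptosis and p53 genes was 8.49, against 8.57 to 8.59. NP24 library 4 had 2519 counts of Tmsb4x, against 3485 to 3603.

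In Tβ10 library 1, Cfdp1 had 1551 counts, against 1784 to 1809.6 in the other Tβ10 libraries, and Chac1 had 37.0, against 83.6 to 91.0. In Tβ10 library 2, Tuba1b had 2389, against 546 to 858. In Tβ10 library 3, Npas4 had 294, against 235 to 244.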

How the results depend on the processing

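With each of the 21 alternatives the number of genes called between NP24 and Tβ10 was 0, as in the values reported. The median half-width of 0.46 was 0.89 with no filter on low values. The 419 genes without overlap between groups were 809 with no filter and 272 at 50 or more normalized counts; with 1 library left out they ranged between 693 and 1226, the highest without Tβ10 library 2, where fewer libraries have to be separated. The share bounded within 2-fold was 37.3% with no filter, 95.05% at 50 or more counts and 90.01% (19669 genes) with a pseudocount of 10. Genes at an unadjusted p under 0.05 ranged between 279, at 50 or more counts, and 2418, with array weights. With 1 library left out, the genes bounded within 2-fold ranged between 14606 and 15191, those within 1.5-fold between 7917 and 9584, and the median half-width between 0.47 and 0.52. With the replicate block, 0 genes were called, 15627 and 9734 were bounded, and the half-width was 0.47. Deviations of same-numbered libraries had correlations of -0.118, 0.126, 0.0291 and -0.0274, and 2 of 8 libraries correlated best with their own number, so the numbers were not taken as pairing. Array weights gave 17044 and 12277 bounded genes with a half-width of 0.35, the mitochondrial rRNA share as covariate 15724 and 10118 with 0.46, and the length slope, a covariate chosen after seeing the data, 16054 and 11397 with 0.40. Of 3723 values of named genes under alternatives, 3720 moved by less than the spread between libraries and none reversed; the lowest adjusted p of a named gene was 0.159, in limma with array weights. Library-size scaling put the median difference of all genes at -0.036, against 0.0062. It changed the sign of 11 of 43 list medians, and leaving out Tβ10 library 1 changed 22. Below about 30 normalized counts, depth and spread left few genes bounded.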
